A study of Mus musculus with 6 samples.

Results

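The genes described here encode the matrix metalloproteinases (MMP), the ADAMTS proteases and their 4 tissue inhibitors (TIMP), in the distal sciatic nerve of mice. They were chosen by symbol: every gene named Mmp, Adamts or Timp with a number and at least 1 transcript labelled protein_coding. This gave 46 of 54309 genes, namely 23 MMP, 19 ADAMTS and 4 TIMP genes with 90 protein-coding transcripts between them. Their estimated reads and TPM values were summed over those transcripts. TPM is abundance corrected for transcript length and is used below to compare genes. CPM, read counts divided by the library total and scaled between libraries by TMM (edgeR's trimmed mean of M-values), is used to compare libraries.

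The series holds 6 libraries, 3 from female and 3 from male C57BL/6 mice aged 6 to 8 weeks, each made from the left nerves of 2 pooled animals 24 h after surgery. No transgene or drug was used, and the only labelled difference between the groups is sex. The labels contradict each other on the surgery, which their treatment field calls axotomy (cutting of the nerve) and their written procedure describes as exposure without a cut (sham), so whether the nerves had been cut cannot be told. Unoperated nerves were not analysed here.

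The libraries held 55272138 to 77610593 estimated reads, and 93.7% to 94.4% of these entered the gene sums. Of the cells of nerve, the 5 perineurial markers (Slc2a1, Lypd2, Moxd1, Itgb4 and Crabp2) were present at a summed 631 to 846 CPM in every library. Sex chromosome genes followed the labels, with Xist at 755 to 960.4 CPM in the female libraries and at most 3.72 CPM in males. Female 2 and male 1 stood apart by skeletal muscle transcripts, with 7 markers summing to 1482 and 797 CPM against 4.84 to 21.9 CPM in the other libraries. Female 1 stood apart by keratinocyte transcripts, with 3 markers (Krt5, Krt14 and Krt10) summing to 31.6 CPM against 1.62 to 2.35 CPM elsewhere. In edgeR's quasi-likelihood test 22 of 18916 genes tested passed an adjusted p of 0.05 (0.116%), 4 higher in females and 18 higher in males.

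MMPs are zinc-dependent enzymes that cut collagens, basement membrane and other matrix or surface proteins. They are made as inactive precursors, secreted or anchored in the membrane. TIMPs bind their active sites and block them, and ADAMTS enzymes are secreted relatives that cut proteoglycans or trim procollagens. In damaged peripheral nerve, MMPs are known for opening the blood-nerve barrier, letting leukocytes in, clearing matrix and cutting myelin basic protein.

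By summed TPM, TIMP RNA was the most abundant. In every male library it stood at a higher ratio to MMP RNA than in any female library. None of the 46 genes passed the test between the sexes over all genes. Among the more abundant genes whose libraries did not overlap by sex in CPM, the collagenases Mmp8 and Mmp13, the elastase Mmp12, the gelatinase Mmp9, Mmp3 and Mmp25 were higher in all 3 female libraries. In contrast, Timp2, Timp3, Mmp2, Mmp15 and the ADAMTS genes Adamts2, Adamts5 and Adamts20 were higher in all 3 male libraries. Fewer cells of a type and less RNA per cell cannot be told apart in these bulk samples.

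The low-count filter kept 38 of the 46 genes, 16 MMP, 18 ADAMTS and 4 TIMP genes. A mean of at least 1 TPM was reached by 31 genes, and one of at least 50 TPM by 9: Timp1, Timp3, Timp2, Mmp2, Mmp3, Mmp14, Mmp19, Mmp9 and Adamts1. Timp1 led at a mean of 935 TPM, followed by Timp3 at 504 TPM and Timp2 at 200.3 TPM, and the ranges of these 3 genes did not overlap across the 6 libraries. The leading proteases were Mmp2 (154 TPM), Mmp3 (136 TPM) and Mmp14 (102 TPM), then Mmp19 (87.8 TPM), Adamts1 (67.8 TPM) and Mmp9 (67.2 TPM). The ranges of Mmp2 (131 to 197 TPM) and Mmp3 (101 to 152 TPM) overlapped, as did those of Mmp3 and Mmp14 (91.5 to 113 TPM). Within each library, however, Mmp3 stood above Mmp14. The order of Mmp2 and Mmp3 differed by sex, with Mmp3 above Mmp2 in every female library and below it in every male library.

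**Figure D1:**
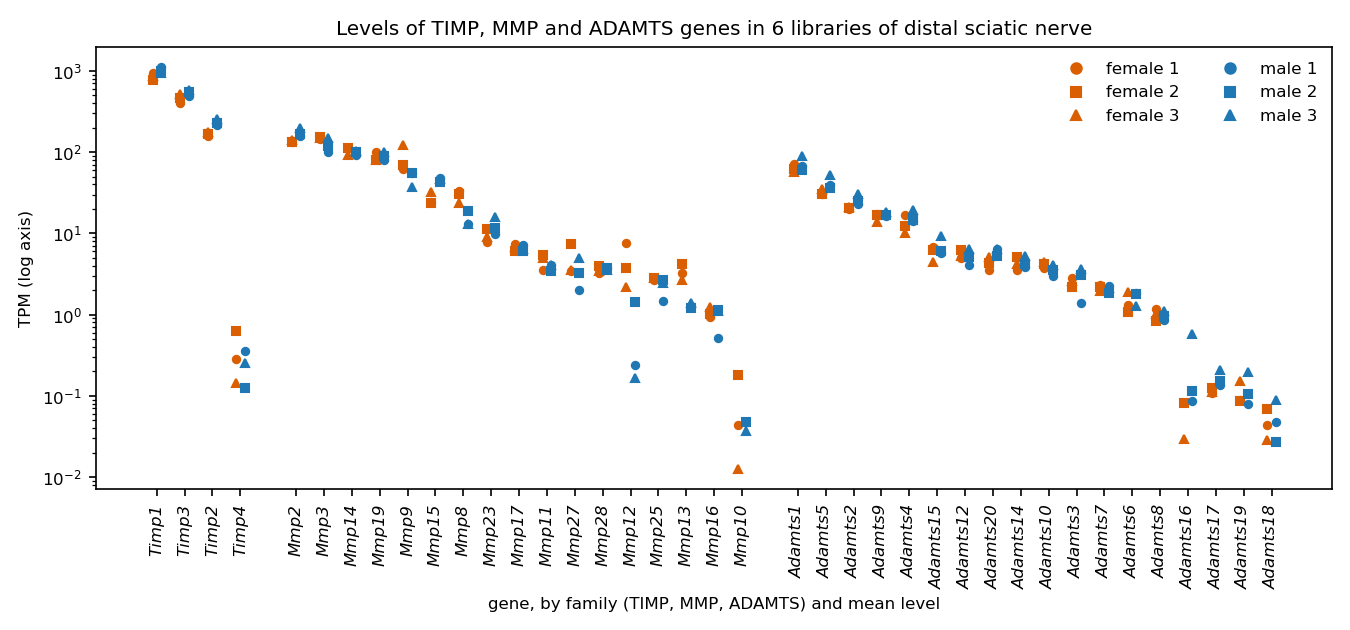
TPM (log axis) of the genes with a mean of at least 0.05 TPM, by family and mean level, with 1 point per library (orange female, blue male, symbol shape for replicate number). Values below 0.01 TPM are not drawn. Within each library Timp1, Timp3 and Timp2 stand above every protease, although the range of Timp2 over libraries overlaps that of Mmp2, and Timp4 is below 1 TPM in all 6 libraries.

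The 46 genes made up 0.233% ± 0.0101 of all TPM in females and 0.262% ± 0.0081 in males (SD, n = 3 each). Summed over its 23 genes, MMP RNA was at 649, 648 and 680.2 TPM in females 1 to 3 and at 575, 623 and 686 TPM in males 1 to 3, with overlapping groups. ADAMTS RNA was at 185.6, 174.2 and 167.5 TPM in females against 189.8, 185.7 and 250.9 TPM in males, male 3 standing highest. These groups did not overlap, but female 1 lay barely below male 2.

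TIMP RNA was at 1503, 1399 and 1575 TPM in females and at 1821, 1761 and 1781 TPM in males, and the groups did not overlap. Timp1 made up 52.8% to 62.6% of this sum in each library. Its own groups were separate in TPM but overlapped in CPM, whereas those of Timp2 were separate on both scales. The ratio of summed TIMP to summed MMP TPM was 2.31, 2.16 and 2.31 in females and 3.17, 2.83 and 2.60 in males. Its mean was 2.26 ± 0.0892 in females and 2.86 ± 0.288 in males (SD, n = 3 each), a difference of 0.60 that is given as a description, with no test. A ratio of RNA levels does not measure enzyme activity.

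**Figure D2:**
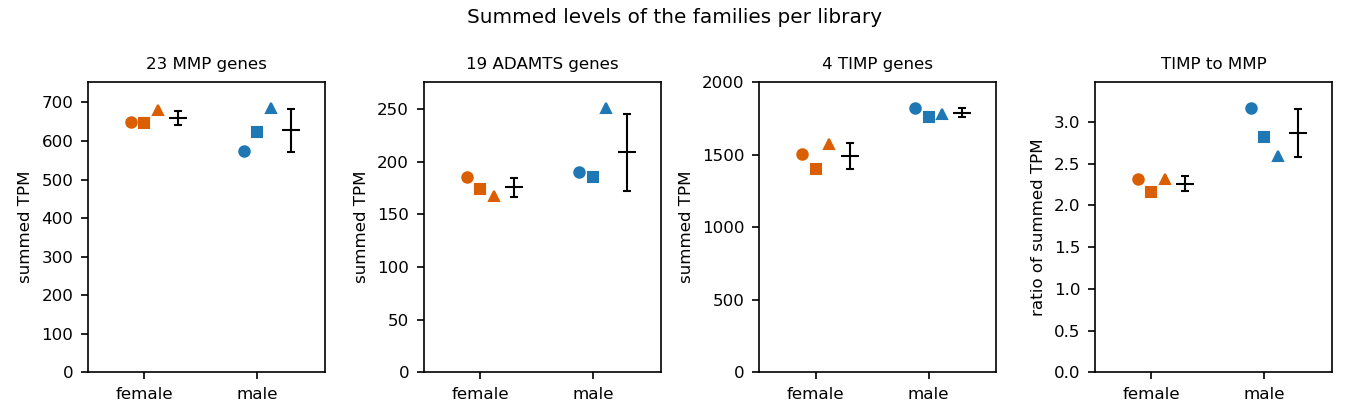
Summed TPM of the 23 MMP, 19 ADAMTS and 4 TIMP genes, and the ratio of TIMP to MMP, with 1 point per library (orange female, blue male) and the mean ± SD of 3 libraries in black. All 3 male libraries lie above all 3 female ones for TIMP and for the ratio (2.60 to 3.17 against 2.16 to 2.31). The same holds for ADAMTS by a very small margin, and the MMP sums overlap.

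Between the sexes, 0 of the 38 genes kept passed an adjusted p of 0.05 in edgeR's quasi-likelihood test, where 0.116% of all genes did (0.0211% higher in females and 0.0952% higher in males). Their lowest adjusted p was 0.0796, for Mmp13. An unadjusted p under 0.05 was found for 12 of them (31.6%), against 13.7% of all genes. Of these, 5 were higher in females, where 5.45% of all genes were, and 7 higher in males, where 8.26% were. DESeq2 called 7 of the 38, with Mmp8, Mmp12 and Mmp13 higher in females, where it called 1.22% of all genes, and Timp2, Mmp2, Mmp15 and Adamts2 higher in males, where it called 3.42%.

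The female and male libraries did not overlap in CPM for 15 of the 38. Every female library lay above every male one for 6 (15.8%, against 9.25% of all genes), all of them MMP genes, and below for 9 (23.7%, against 11.3%). The median log2 fold change, female minus male, was -0.06 over the 38 genes and 0.02 over all genes tested. By family it was 0.20 for MMP, -0.20 for ADAMTS and -0.24 for TIMP genes, with 11 of 16, 5 of 18 and 1 of 4 above 0. On the TPM scale Mmp3, Mmp25 and Timp3 overlapped between the sexes and Timp1 did not, so that those 4 depended on the scale.

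**Figure D3:**
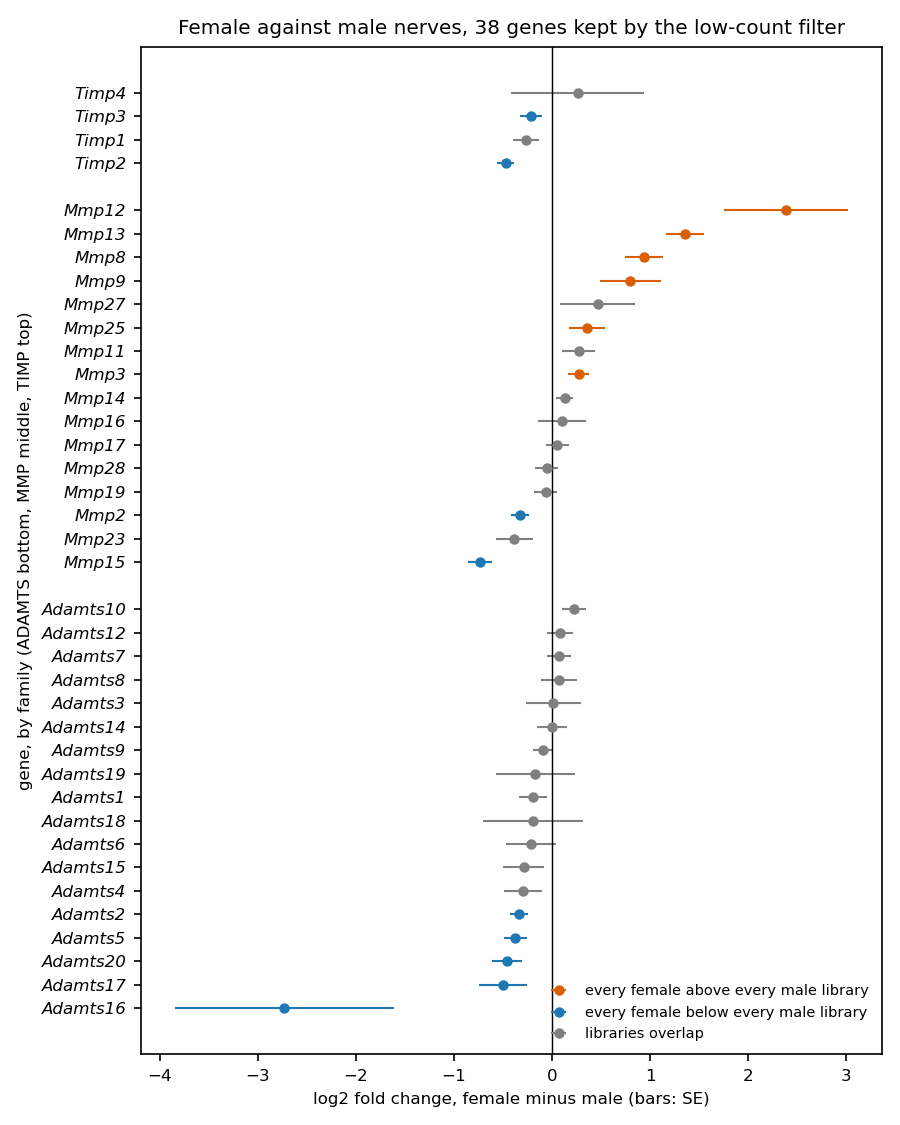
Log2 fold change, female minus male, with its SE, of the 38 genes kept, grouped by family. Orange marks genes with every female library above every male one, blue those with every female library below, and grey those that overlap. The orange points are all MMP genes, from 0.27 for Mmp3 to 2.38 for Mmp12, and all 3 abundant TIMP genes lie below 0.

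Timp2 was the inhibitor with the widest separation. Besides blocking MMPs, it forms the bridge by which Mmp14 activates the Mmp2 precursor. Timp2 was at 361, 384 and 411 CPM in females 1 to 3 and at 519, 526 and 562 CPM in males 1 to 3. The groups did not overlap, and the gap between them was wider than the spread within either. The means were 386 ± 24.8 and 536 ± 23.4 CPM (SD, n = 3 each), and the log2 fold change was -0.47 (SE 0.09), with an adjusted p of 0.126 by edgeR and 2.07e-05 by DESeq2.

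Timp3, which binds to the matrix and also blocks ADAMTS enzymes and the sheddase Adam17, was at 1166, 1297 and 1489 CPM in the female libraries and at 1507, 1539 and 1544 CPM in males. Its groups were separate but close, with male 1 just above female 3 (log2 fold change -0.22, edgeR adjusted p 0.444), and the log2 fold change was -0.14 without female 1. Timp1, an X-linked, injury-inducible inhibitor of secreted MMPs, was at 448, 347 and 407 CPM against 555, 459 and 430.3 CPM, and overlapped. Timp1 had a log2 fold change of -0.26 (SE 0.13, edgeR adjusted p 0.423), which was -0.18 without female 2, -0.15 without male 1 and -0.06 without both. Timp4, known from heart and fat, stood at 0.126 to 0.619 TPM.

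Mmp2, gelatinase A, is made mainly by fibroblast-like cells and cuts denatured collagen and basement membrane. It was at 305, 313 and 335 CPM in females 1 to 3 and at 379.8, 377 and 439 CPM in males 1 to 3. Male 3 was highest, and no female library reached the lowest male one. Mmp2 had a log2 fold change of -0.33 (SE 0.09), with an adjusted p of 0.205 by edgeR and 0.0273 by DESeq2.

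Mmp14, the membrane-bound activator of Mmp2, was at 217, 226 and 185 CPM in the female libraries and at 188, 193 and 193 CPM in males, and overlapped (log2 fold change 0.13, edgeR adjusted p 0.581). Its log2 fold change was 0.06 without female 2 and 0.21 without female 3. The ratio of Timp2 to Mmp2 TPM was 1.23 ± 0.0373 in females and 1.35 ± 0.0413 in males (SD, n = 3 each). Of this trio of enzyme, activator and bridging inhibitor, Mmp2 and Timp2 were thus higher in all male libraries and Mmp14 was not.

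Mmp15, another membrane-type MMP, showed the lowest log2 fold change of the MMP genes. It was at 93.9, 92.6 and 124 CPM in females 1 to 3 and at 186, 161 and 169 CPM in males 1 to 3, with no overlap. The means were 103 ± 17.6 and 172 ± 13.0 CPM (SD, n = 3 each), and the log2 fold change was -0.74 (SE 0.13). Its adjusted p was 0.123 by edgeR, 0.0198 by edgeR without female 3 and 3.25e-05 by DESeq2, the lowest of 17 alternatives, which reached 0.339.

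In the libraries where Timp2, Mmp2 and Mmp15 were higher, markers of several cell types were higher as well. The 6 nerve fibroblast markers (Col1a1, Col1a2, Dcn, Lum, Pdgfra and Pi16) summed to 5489 to 6372 CPM in females against 7813 to 9748 CPM in males, and none of the 6 was at 0. Of these, 5 had a log2 fold change below 0 (median -0.53). The 5 perineurial markers summed to 631 to 758 CPM in females against 764 to 846 CPM in males, all 5 below 0 (median -0.33). The 6 myelin markers summed to 11974 to 18807 CPM against 24498 to 33186 CPM, all 6 below 0 (median -0.75). The 5 Schwann cell markers summed to 995 to 1414 CPM against 1460 to 1957 CPM, all 5 below 0 (median -0.40). The 4 T cell markers, at 2.59 to 3.75 CPM against 4.35 to 7.69 CPM, were also below 0. Mast cell, endothelial, mural and adipocyte marker sums overlapped between the sexes. The part of these cell types in the TIMP and MMP values was not tested.

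**Figure D4:**
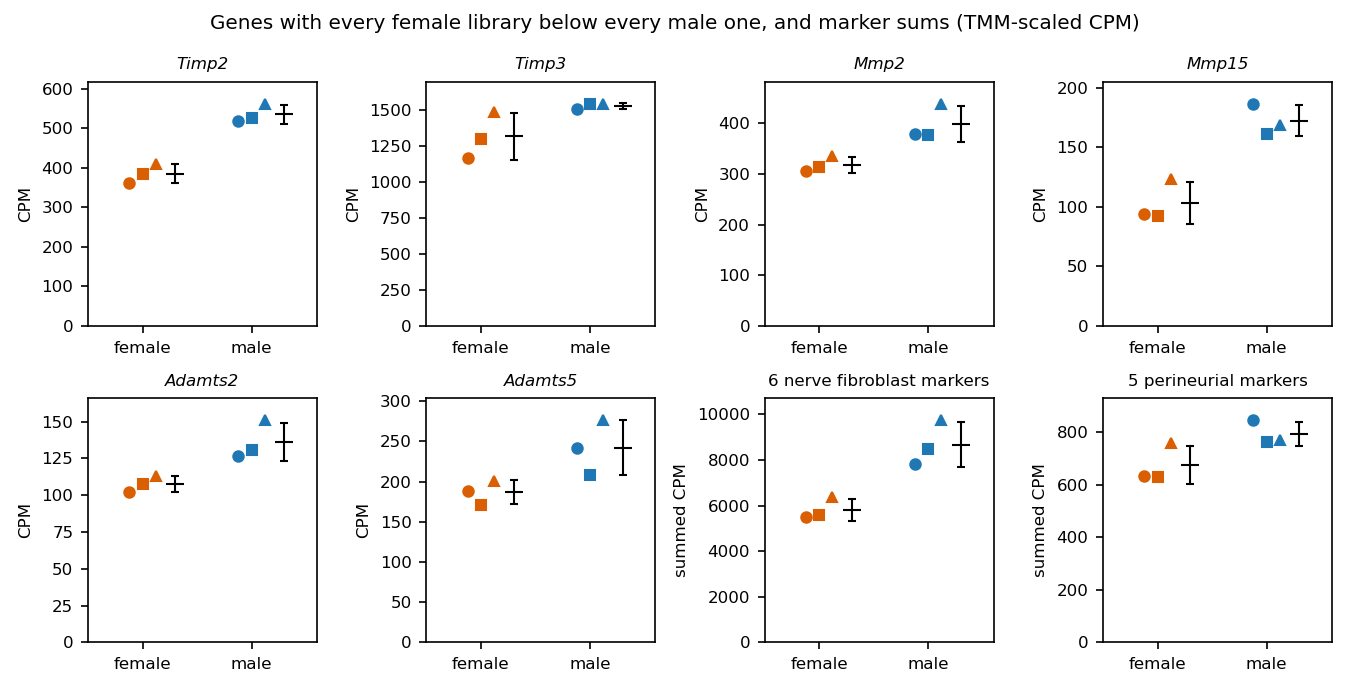
TMM-scaled CPM of Timp2, Timp3, Mmp2, Mmp15, Adamts2 and Adamts5, and the summed CPM of 6 nerve fibroblast and 5 perineurial markers, with 1 point per library (orange female, blue male, symbol shape for replicate number) and the mean ± SD of 3 libraries in black. In every panel the 3 female libraries lie below the 3 male ones; for Timp2 they are at 361 to 411 against 519 to 562 CPM.

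Several MMP genes lie side by side on mouse chromosome 9. In RefSeq's annotation of GRCm38.p6 the order of the 10 genes is Mmp13, Mmp12, Mmp1b, Mmp3, Mmp1a, Mmp10, Mmp8, Mmp27, Mmp20 and Mmp7. Of these, 5 were kept by the low-count filter, and each of the 5 had a log2 fold change above 0: Mmp13 1.35, Mmp12 2.38, Mmp3 0.27, Mmp8 0.93 and Mmp27 0.46. In 4 of the 5, all except Mmp27, every female library lay above every male one, as it did for 9.25% of all genes tested. This group was taken up with the values known, so its count is a description. The gene order comes from RefSeq, since the sources used here do not name the build behind the authors' tables.

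Promoter sequences in RefSeq's table, from 250 bases before to 50 after the annotated start, matched 32 of the 46 genes. The letters TGANTCA, the consensus of AP-1 (the FOS and JUN dimer, a known regulator of several MMP genes), were searched on both strands and were found for 8 of the 32 genes, or 8 of their 35 promoters. Of all entries, 8.97% of 27025 genes and 7.81% of 32851 promoters held them. All 8 were in the chromosome 9 cluster (Mmp13, Mmp12, Mmp1b, Mmp3, Mmp1a, Mmp10, Mmp20 and Mmp7), and 0 of the 22 other genes held them. All 10 cluster genes had a promoter sequence, so the 14 genes without one lie outside the cluster and were not searched. The letters of the TATA box, TATAAA, were searched on both strands at any place in the same window. They were found for 11 of the 32 genes, or 11 of their 35 promoters. Of all entries, 15.7% of genes and 13.6% of promoters held them. A match of letters is not a site shown to be bound.

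Stretches of 5 of these promoters, from 100 bases before to 50 after the start, are shown 5′ to 3′ on the plus strand because they belong to the 4 cluster genes whose sexes did not overlap and to 1 gene with almost no reads (Mmp10). Capitals mark TGANTCA and TATAAA or its reverse complement, which do not overlap each other in these stretches. For Mmp12 the second of 2 listed start sites is shown, since the first holds no TGANTCA. In GRCm38.p6 the stretches are chr9:7272414-7272563 for Mmp13, chr9:7347274-7347423 for Mmp12, chr9:7445722-7445871 for Mmp3, chr9:7502242-7502391 for Mmp10 and chr9:7558329-7558478 for Mmp8.
Mmp13: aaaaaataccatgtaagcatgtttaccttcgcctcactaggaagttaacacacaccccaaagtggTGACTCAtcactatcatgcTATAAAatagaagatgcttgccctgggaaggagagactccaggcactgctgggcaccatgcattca
Mmp12: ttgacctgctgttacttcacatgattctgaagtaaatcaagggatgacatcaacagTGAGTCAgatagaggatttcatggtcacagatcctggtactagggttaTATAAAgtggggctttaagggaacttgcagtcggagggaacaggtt
Mmp3: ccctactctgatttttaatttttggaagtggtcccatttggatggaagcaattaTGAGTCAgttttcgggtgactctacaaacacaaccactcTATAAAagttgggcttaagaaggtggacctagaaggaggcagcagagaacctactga
Mmp10: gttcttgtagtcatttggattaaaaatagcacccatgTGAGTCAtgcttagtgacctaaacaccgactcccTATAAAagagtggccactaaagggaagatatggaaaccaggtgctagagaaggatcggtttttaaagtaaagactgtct
Mmp8: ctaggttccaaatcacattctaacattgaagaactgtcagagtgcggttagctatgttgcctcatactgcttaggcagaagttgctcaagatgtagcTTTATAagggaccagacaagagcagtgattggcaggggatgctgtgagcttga

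The TGANTCA match begins 35 bases before the start in Mmp13, 44 in Mmp12, 46 in Mmp3 and 63 in Mmp10. TATAAA or its reverse complement begins 16 bases before the start in Mmp13, 29 in Mmp10, 7 in Mmp3 and 3 in Mmp8. In Mmp12 it begins after the start. The genes holding TGANTCA ranged from a mean of 136 TPM for Mmp3 to no reads in any library for Mmp7, Mmp20 and Mmp1b. Mmp8, with a mean of 22.1 TPM, does not hold TGANTCA in this window.

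Mmp13, the main interstitial collagenase of rodents, had the lowest p of the 46 genes. It was at 4.91, 5.99 and 3.88 CPM in females 1 to 3 and at 2.06, 1.79 and 1.93 CPM in males 1 to 3. The groups did not overlap, and the lowest female library stood well above the closely spaced males. The means were 4.93 ± 1.06 and 1.93 ± 0.130 CPM (SD, n = 3 each), and the log2 fold change was 1.35 (SE 0.19), with an adjusted p of 0.0796 by edgeR, 0.0219 by edgeR without female 3 and 3.44e-07 by DESeq2, the lowest of 17 alternatives, which reached 0.294.

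Mmp8, the collagenase stored in neutrophil granules, was at a mean of 22.1 TPM, against 2.33 TPM for Mmp13. Per library it was at 48.0, 41.4 and 33.3 CPM in the female libraries and at 20.1, 26.8 and 17.3 CPM in males. These groups were separate (40.9 ± 7.33 against 21.4 ± 4.88 CPM, SD, n = 3 each). Its log2 fold change of 0.93 (SE 0.19) had an adjusted p of 0.144 by edgeR and 0.000291 by DESeq2.

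Mmp12, the macrophage elastase, had the largest log2 fold change of the 46 genes toward females, 2.38 (SE 0.63, edgeR adjusted p 0.205), at low levels. It was at 5.48, 2.33 and 1.37 CPM in females 1 to 3 and at 0.493, 0.968 and 0.289 CPM in males 1 to 3. The groups did not overlap, and female 1 was 4.01 times female 3. Transcripts of the gene that are not labelled protein_coding held 76.3% of its reads, and with these included the log2 fold change was 1.74 (edgeR adjusted p 0.152).

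Mmp3, stromelysin 1, which activates other MMP precursors, was at 172, 176 and 176 CPM in the female libraries and at 127, 139 and 169 CPM in males. Male 3 lay just below the lowest female library, and the log2 fold change of 0.27 (SE 0.11) had an adjusted p of 0.328 by edgeR. Mmp27 was at 3.66, 7.44 and 3.65 CPM against 2.31, 3.38 and 5.03 CPM, with overlap. Mmp10, a stromelysin much like Mmp3 in sequence, had 0 to 13 reads per library, and Mmp1a, the mouse counterpart of interstitial collagenase, had 3 reads in female 3 and none elsewhere. No reads were assigned to Mmp1b, Mmp7 or Mmp20, for which the upper limit of 3 reads lay between 0.0409 and 0.0578 CPM.

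Mmp9, gelatinase B, comes from neutrophils and macrophages and is known to cut myelin basic protein. It was at 149.6, 168 and 301 CPM in females 1 to 3 and at 138, 131 and 86.6 CPM in males 1 to 3. The groups did not overlap, but female 1 and male 1 were close and female 3 stood far above the rest. Its mean was 206 ± 82.5 CPM in females against 119 ± 28.0 CPM in males (SD, n = 3 each), and the log2 fold change was 0.79 (SE 0.31) with an adjusted p of 0.343 by edgeR and 0.058 by DESeq2. Without female 3 the log2 fold change was 0.42.

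Mmp25, a membrane-type MMP of leukocytes, was at 8.34, 8.69 and 8.92 CPM in the female libraries and at 4.88, 8.20 and 7.27 CPM in males. Its groups were separate by a narrow margin, and the log2 fold change of 0.35 (edgeR adjusted p 0.444) was 0.16 without male 1.

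Leukocyte markers gave the following values in the same libraries. The 10 neutrophil markers (such as S100a8, S100a9, Csf3r and Cxcr2) summed to 1747, 956 and 1729 CPM in females 1 to 3 and to 1386, 1128 and 709 CPM in males 1 to 3, with overlapping groups. None of the 10 was at 0 in all libraries, and 8 of the 9 kept by the filter had a log2 fold change above 0 (median 0.52). The 7 macrophage markers summed to 4426, 4679 and 3763 CPM against 2991, 4360.2 and 3763 CPM, also overlapping, with all 7 above 0 (median 0.27). Mmp8 was highest in female 1, whereas Mmp9 was highest in female 3. The part of these cells in the Mmp8, Mmp9, Mmp12 and Mmp25 values was not tested.

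**Figure D5:**
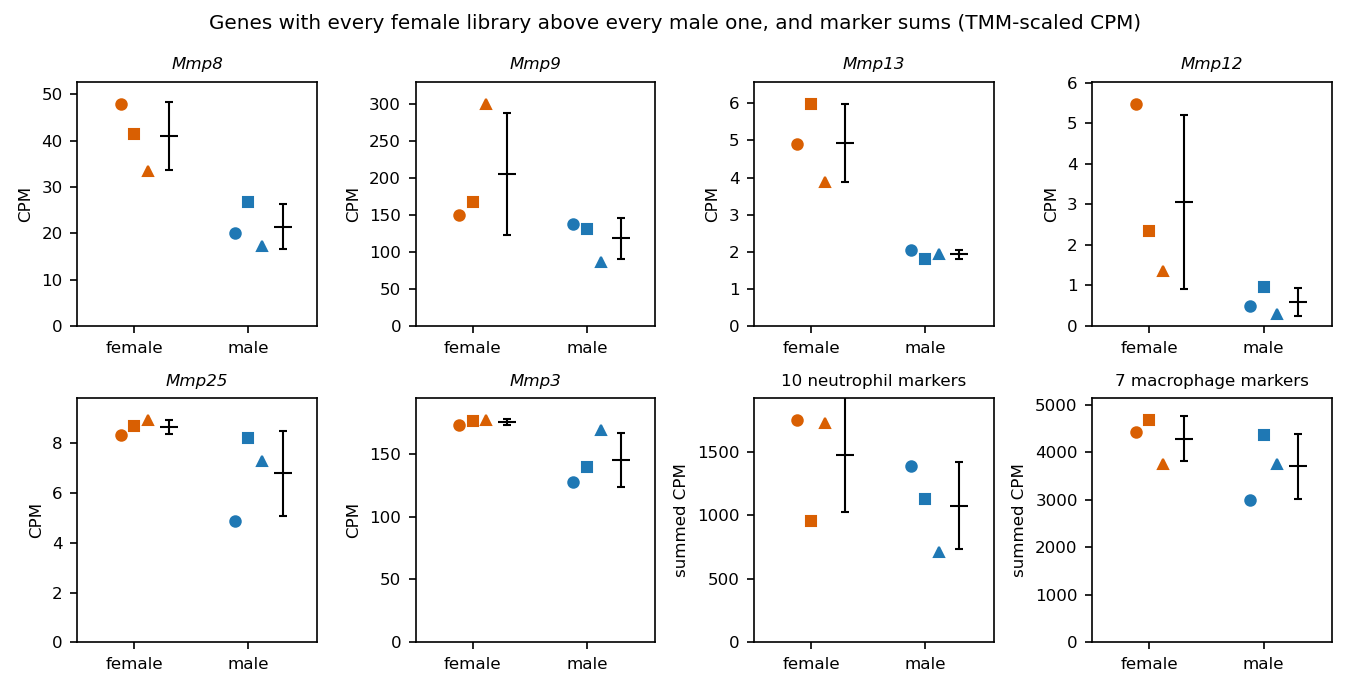
TMM-scaled CPM of the 6 genes with every female library above every male one, and the summed CPM of 10 neutrophil and 7 macrophage markers, with 1 point per library (orange female, blue male, symbol shape for replicate number) and the mean ± SD of 3 libraries in black. Mmp13 is at 3.88 to 5.99 CPM in females against 1.79 to 2.06 CPM in males, and both marker sums overlap between the sexes.

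The other MMP genes overlapped between the sexes or were scarce. Mmp19, a secreted MMP of broad expression, was at 223, 167 and 172 CPM in the female libraries and at 189, 193 and 206 CPM in males, and Mmp17, a membrane-type MMP, at 35.7, 29.3 and 32.2 CPM against 35.8, 28.9 and 28.9 CPM. Both overlapped between the sexes, and both had log2 fold changes near 0 (-0.06 and 0.05) that took the opposite sign without 1 female library. Mmp23 was at 7.66, 10.8 and 8.59 CPM against 9.61, 11.05 and 14.7 CPM, also overlapping (log2 fold change -0.39, and -0.19 without male 3). Mmp11, Mmp28 and Mmp16 had means of 4.28, 3.62 and 0.991 TPM with adjusted p of at least 0.538 by edgeR. Mmp24 and Mmp21 had at most 11 reads in any library.

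The most abundant ADAMTS genes by mean TPM were Adamts1 and Adamts5, which cut the large proteoglycans aggrecan and versican, followed by Adamts2 at 23.3 TPM. Adamts1, an inducible gene, was at 239.5, 207 and 189.5 CPM in the female libraries and at 237, 201 and 289 CPM in males, and overlapped (log2 fold change -0.19, and -0.04 without male 3). Adamts5, the chief aggrecan-cutting enzyme of mouse cartilage, was at 188, 171 and 201 CPM in the female libraries and at 242, 208 and 276 CPM in males. Its groups were separate, and the log2 fold change of -0.37 (SE 0.12) had an adjusted p of 0.236 by edgeR and 0.0707 by DESeq2.

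Adamts4, an aggrecan-cutting enzyme, was at 53.5, 39.7 and 32.2 CPM in the female libraries and at 47.6, 47.2 and 59.2 CPM in males, while Adamts9 was at 102, 96.6 and 80.5 CPM against 97.6, 97.2 and 104 CPM. Adamts15 was at 29.1, 26.7 and 19.2 CPM against 26.2, 26.8 and 38.9 CPM. These 3 overlapped between the sexes, with edgeR adjusted p from 0.553 to 0.712, and in each female 3 was the lowest library. With 1 library left out, the log2 fold change ran from -0.51 (without female 1) to -0.14 (without female 3) for Adamts4. It ran from -0.17 (without female 1) to -0.0005 (without female 3) for Adamts9, and from -0.42 (without female 1) to -0.08 (without male 3) for Adamts15. Adamts20, known for a role in the migration of pigment cells, was at 17.0, 20.8 and 24.9 CPM in the female libraries and at 32.2, 25.1 and 29.1 CPM in males. It was separate by a narrow margin, with a log2 fold change of -0.46 (SE 0.15) and an adjusted p of 0.254 by edgeR.

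Adamts2 removes the N-terminal propeptide of fibrillar procollagens, a step in making collagen fibrils. It was at 102, 107 and 113 CPM in females 1 to 3 and at 127, 131 and 151 CPM in males 1 to 3. As with Mmp2, no female library reached the male range. The means were 108 ± 5.24 and 136 ± 13.0 CPM (SD, n = 3 each), and the log2 fold change was -0.34 (SE 0.09), with an adjusted p of 0.186 by edgeR and 0.0296 by DESeq2.

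The other procollagen N-proteinases, Adamts14 (4.35 TPM) and Adamts3 (2.62 TPM), had log2 fold changes of 0.00 and 0.01, with edgeR adjusted p of 0.992 and 0.99. Adamts12, related to Adamts7, was at 30.3, 37.6 and 31.4 CPM against 26.7, 30.6 and 36.4 CPM, and overlapped. Adamts10, Adamts7, Adamts6 and Adamts8 had means of 3.84 TPM, 2.12 TPM, 1.54 TPM and 0.988 TPM, all with overlap.

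The remaining ADAMTS genes were scarce. Adamts16 was separate between the sexes (0, 0.309 and 0.112 CPM against 0.352, 0.422 and 2.04 CPM), at 0 to 106 reads per library and with male 3 apart from the rest. Its log2 fold change of -2.73 had an SE of 1.12 and an adjusted p of 0.359 by edgeR. Adamts17 was separate as well at a mean of 0.14 TPM, and Adamts18 and Adamts19 overlapped. Adamts13, the liver-made protease that cuts von Willebrand factor, had at most 8 reads in any library.

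In several abundant genes with more than 1 protein-coding transcript, 1 of these held nearly all of the TPM summed over them. This transcript held at least 97.2% of the TPM of Mmp2 and Mmp14, at least 99.2% of that of Timp3 and at least 97.6% of that of Timp2 in every library. Timp1 was divided almost evenly between 2 transcripts, Timp1-202 holding 51.0% to 53.1% in each library. Mmp19-201 held 77.6% to 89.8% and Adamts2-201 79.2% to 82.9%. These shares are Salmon's estimates and were similar in the sexes for these genes. Some scarcer genes were more divided, with Mmp27-201 holding 50.6% to 67.4%. Mmp12-202 ranged from 0% to 100% over libraries, with means of 89.8% in females and 31.8% in males.

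Of 15 regulators outside the families, which include other inhibitors, activators and ADAMTS-like proteins, 1 passed the test between the sexes, and it was higher in males. This was A2m, a broad protease inhibitor that traps MMPs, at 22.7 ± 3.07 CPM in females against 48.5 ± 2.59 CPM in males (SD, n = 3 each), with a log2 fold change of -1.09 and an edgeR adjusted p of 0.0161. The sheddase gene Adam10 was at 285 ± 24.0 against 359 ± 16.7 CPM and Thbs2, whose product helps clear MMPs, at 529 ± 15.4 against 416 ± 9.82 CPM, both without overlap but not past the threshold (edgeR adjusted p 0.195 and 0.146).

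Bsg, an inducer of MMPs, was at 331 ± 36.3 CPM in females against 331 ± 23.4 CPM in males (SD, n = 3 each). Furin, which activates membrane-type MMP precursors, had a log2 fold change of 0.14, the clearance receptor Lrp1 one of 0.07, Adam17 one of 0.14, Thbs1 one of -0.13 and Adamtsl5 one of -0.27, with edgeR adjusted p of at least 0.458.

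Of the 6 genes of the plasmin system, which activates MMP precursors, Serpine2, an inhibitor of plasminogen activators, passed the test. It was at 83.5 ± 10.7 CPM in females against 150.8 ± 11.1 CPM in males (SD, n = 3 each), with a log2 fold change of -0.85 and an edgeR adjusted p of 0.0474. Of the other 5, Plg was too scarce to be tested and the rest did not pass. Of 4 proteoglycan substrates of ADAMTS enzymes, Vcan and Bcan were abundant enough to be tested, and neither passed. Vcan alone exceeded 1 TPM, with 422 ± 49.0 CPM in females against 449.97 ± 78.9 CPM in males.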

How the data were processed

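RNA of 6 nerve pools was measured by stranded, poly-A selected sequencing with reads of 100 nt, per the labels' protocols. Trimming with Trimmomatic 0.39, quantification with Salmon 1.5.2 and MultiQC 1.9 appear in the submitters' processing notes. Deposited tables give, per the file headers, an estimated count and a TPM value for each of 140789 transcripts. These deposited estimated counts carry no normalization. TPM, also deposited by the authors, is corrected for transcript length and library total. Of build, annotation release and use of strand, the sources used here say nothing. Salmon divides reads among similar sequences by an estimate. How far this touches related genes (Mmp1a and Mmp1b, Mmp3 and Mmp10) was not examined.

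Estimated counts were summed per gene over protein_coding transcripts, or over all transcripts for genes without one, and rounded. Genes passing filterByExpr were tested, female against male, with edgeR 4.0.16 (TMM, robust quasi-likelihood, no covariate, Benjamini-Hochberg over all 18916 genes, threshold 0.05). SEs of log2 fold changes were derived from that test. R 4.3.3, limma 3.58.1 and DESeq2 1.42.0 were used, and DESeq2's adjusted p was missing for 2252 genes. A member was described by library at a mean of at least 5 TPM, when called, or without overlap at 0.5 TPM or more. Regulators were named when called or at 20 TPM or more. Other genes were named after their values were seen. The genes, lists and rules were chosen with earlier results of these data known.

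In simulated data of 18916 genes for this comparison, recovery was 22.4% (15 of 67) at a log2 change of 0.5. It was 68.7% (46 of 67) at 1 and 97.0% (64 of 66) at 2, with 13 false calls. The changed genes all had a mean above 1 CPM, so these rates do not cover scarcer genes. Counts were drawn independently for each gene, without variation shared between genes. Every pair of libraries differed by more than sampling noise (chi-square per degree of freedom at least 26.5). Each library is a pool of 2 animals, per the labels' protocols, and limits from read counts cover counting error only. The alternatives were other scalings, filters, transcript sums and tools, the replicate number as a block, and libraries left out.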

Additional observations from a re-analysis of the deposited data

Results flagged for a closer look

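Reads in transcripts of the 46 genes that are not labelled protein_coding lie outside the values above. They averaged 5640 per library, above the 3 reads that could go unseen, and took 1.68% to 2.25% of the genes' reads. Adamts10 and Mmp12 stood out, with 76.1% and 76.3% of their reads in such transcripts, followed by Adamts6 (46.7%), Mmp23 (19.2%) and Adamts9 (16.0%). For Mmp12 these were 736, 594 and 498 reads in females 1 to 3 and 172, 251 and 110 reads in males 1 to 3. Groups of 3 libraries are too small for a test of single outlying samples.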

How the results depend on the processing

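The 23 genes described by library had 391 log2 fold changes over 17 alternatives, of which 5 took the opposite sign: Mmp17 without female 1 (-0.021), Mmp19 without female 2 (0.0061), and Adamts12 without female 2 (-0.022), without male 1 (-0.01) and without both (-0.12). With 1 library left out these ran from -0.021 to 0.169 for Mmp17, -0.21 to 0.0061 for Mmp19 and -0.022 to 0.212 for Adamts12. No member was called in the other fits except 3 (Mmp13, Mmp15 and Timp2) with no low-count filter, 7 with DESeq2, and 2 (Mmp13 and Mmp15) without female 3, so that the number of members called ran from 0 to 2 with a library left out. Over all genes 22 were called, 155 with no filter, 774 with DESeq2, 11 with limma on log2(TPM + 1), and 7, 6 and 148 without females 1, 2 and 3 and 15, 4 and 6 without males 1, 2 and 3; the cause was not tested. The members' median ran from -0.10 to 0.036 with 1 library left out and was -0.16 without female 2 and male 1. With the replicate number as a block 3 genes and no member were called; same-numbered libraries deviated with correlations of -0.09, -0.16 and 0.04, so the numbers were not taken as pairs. The difference in the TIMP to MMP ratio, whose alternatives were chosen after seeing the data, was 0.40 to 0.73 over 8 alternatives. Depth did not limit the abundant genes, but those under 1 CPM rest on few reads.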
